A study of Mus musculus with 10 samples.

Results

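Cholesterol is built from acetyl-CoA along a single route, and the genes described here are 7 of its enzymes together with a protein that restrains it. They are Hmgcs1, Idi1, Fdps, Fdft1, Sqle, Cyp51, Msmo1 and Insig1. They were chosen by name, with earlier results of these data known, and taken with every probe set that the platform annotation assigns to them. The 8 genes had 20 of the 45037 probe sets that were not controls, and 16 of the 20 passed a filter on low values and were tested. Each gene kept at least 1 tested probe set. None of the 8 is an uptake receptor, so genes of cholesterol uptake enter below through a separate list.

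The tissue was whole mouse embryonic ovary collected at 5 stages named by the day of gestation, the early E11.5 and E12.5 and the later E14.5, E16.5 and finally E18.5. Each stage had 2 arrays, from tissue that the series describes as prepared independently. The labels name no strain, genotype or treatment, and do not say how many embryos went into a preparation. In bulk tissue, fewer cells of a type and less RNA per cell cannot be told apart.

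Hmgcs1 encodes the cytosolic HMG-CoA synthase at the entry to the mevalonate pathway. Idi1 and Fdps then make the isoprenoid units and farnesyl diphosphate, from which protein prenylation, dolichol and ubiquinone also draw. Fdft1, squalene synthase, commits farnesyl diphosphate to sterols, Sqle oxidises squalene, and Cyp51 and Msmo1 remove methyl groups from the sterol ring. Insig1 holds the SREBP transcription factors in the endoplasmic reticulum when sterols are plentiful, and it is itself a target of those factors. In the gonad, cholesterol is a membrane component and the starting material of steroid hormones.

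The 3 promoter stretches below belong to genes with 3 different courses over development, and show where the letters of a sterol-response motif and of its usual neighbours lie. They are the 250 bases before the gene start on the plus strand, from RefSeq on build GRCm38.p6, which gave a promoter for 5 of the 8 genes. Capitals mark matches on either strand to TCACNCCAC (a sterol regulatory element), CCAAT (the NF-Y box, read as ATTGG on the other strand) and CACGTG (an E-box). The motifs do not overlap each other in these stretches.
Hmgcs1, chr13:119690101-119690350: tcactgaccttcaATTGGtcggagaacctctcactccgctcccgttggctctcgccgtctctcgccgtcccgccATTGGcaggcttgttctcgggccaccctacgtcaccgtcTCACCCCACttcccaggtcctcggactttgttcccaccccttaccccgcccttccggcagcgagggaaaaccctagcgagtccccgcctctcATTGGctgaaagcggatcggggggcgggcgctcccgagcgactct
Idi1, chr13:8885356-8885605: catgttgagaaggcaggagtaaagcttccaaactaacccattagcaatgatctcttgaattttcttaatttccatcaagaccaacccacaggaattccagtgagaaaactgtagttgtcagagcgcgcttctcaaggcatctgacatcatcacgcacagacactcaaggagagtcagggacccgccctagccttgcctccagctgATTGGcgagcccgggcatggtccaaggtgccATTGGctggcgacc
Insig1, chr5:28071162-28071411: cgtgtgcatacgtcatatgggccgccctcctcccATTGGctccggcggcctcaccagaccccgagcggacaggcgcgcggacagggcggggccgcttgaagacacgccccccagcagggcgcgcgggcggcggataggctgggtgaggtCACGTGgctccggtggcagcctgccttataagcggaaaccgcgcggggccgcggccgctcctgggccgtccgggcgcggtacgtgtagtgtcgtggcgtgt
Hmgcs1 held 1 TCACNCCAC match and 3 CCAAT matches, Idi1 held 2 CCAAT matches, and Insig1 held 1 CCAAT and 1 CACGTG match. Of the 2 promoters not printed, Cyp51 held 1 CCAAT match and Msmo1 held 3. Among 32851 promoter windows of the same length, 1.05% held TCACNCCAC, 33.8% held CCAAT and 6.02% held CACGTG. A match is a description of the letters, and a missing match says nothing about binding.

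Values are scaled signals, that is, array intensities set to the same 75th percentile. Signals of different probe sets are not compared with each other. Changes are given on the log2 scale ± SE from limma, with Benjamini-Hochberg adjusted p-values over all 27510 probe sets tested and a threshold of 0.05. A gene is represented by its brightest tested probe set, and its other probe sets are named where they are used.

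E12.5 replicate 2 stood apart and was left out of the main results. Its log2 signals correlated with the other arrays at 0.418 to 0.470, against 0.873 to 0.964 among the other 9. On E12.5 replicate 1 the Actb control had a 3′ signal 10.6 times its 5′ signal, where the remaining 8 of the 9 arrays had ratios of 1.51 to 2.22, so E12.5 rests on 1 array with a 3′-shifted control. By the hybridization date in the experiment files there were 3 runs. The first held both early stages, E11.5 and E12.5, the second held E14.5 together with E16.5, and E18.5 had a run to itself. Run and stage cannot be told apart in any comparison across runs, whereas E16.5 and E14.5 shared a run. Putting the tenth array back raised the SE of the 8 genes to between 0.59 and 0.86 in each of the comparisons E16.5 against E14.5, E18.5 against E16.5 and E18.5 against E11.5. With all 10 arrays limma called 0 of the 8 genes in every comparison below, and 0 to 4 had an unadjusted p under 0.05.

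Levels of the 8 genes differed across the 5 stages, with adjusted p-values of the limma F test from 0.000148 for Idi1 to 0.00528 for Hmgcs1. All 8 passed, where 35.5% of all 13305 genes did. Because the genes were chosen with earlier results of these data known, that count is a description and not a test of the pathway. Without E12.5 replicate 1 the count was 7, with Hmgcs1 lost. They did not share a single course. Idi1, Fdps, Sqle, Cyp51 and Msmo1 ended lower than they began. Fdft1 and Insig1 were low at E16.5 and high again at E18.5, and the probe sets of Hmgcs1 disagreed at E12.5.

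**Figure D1:**
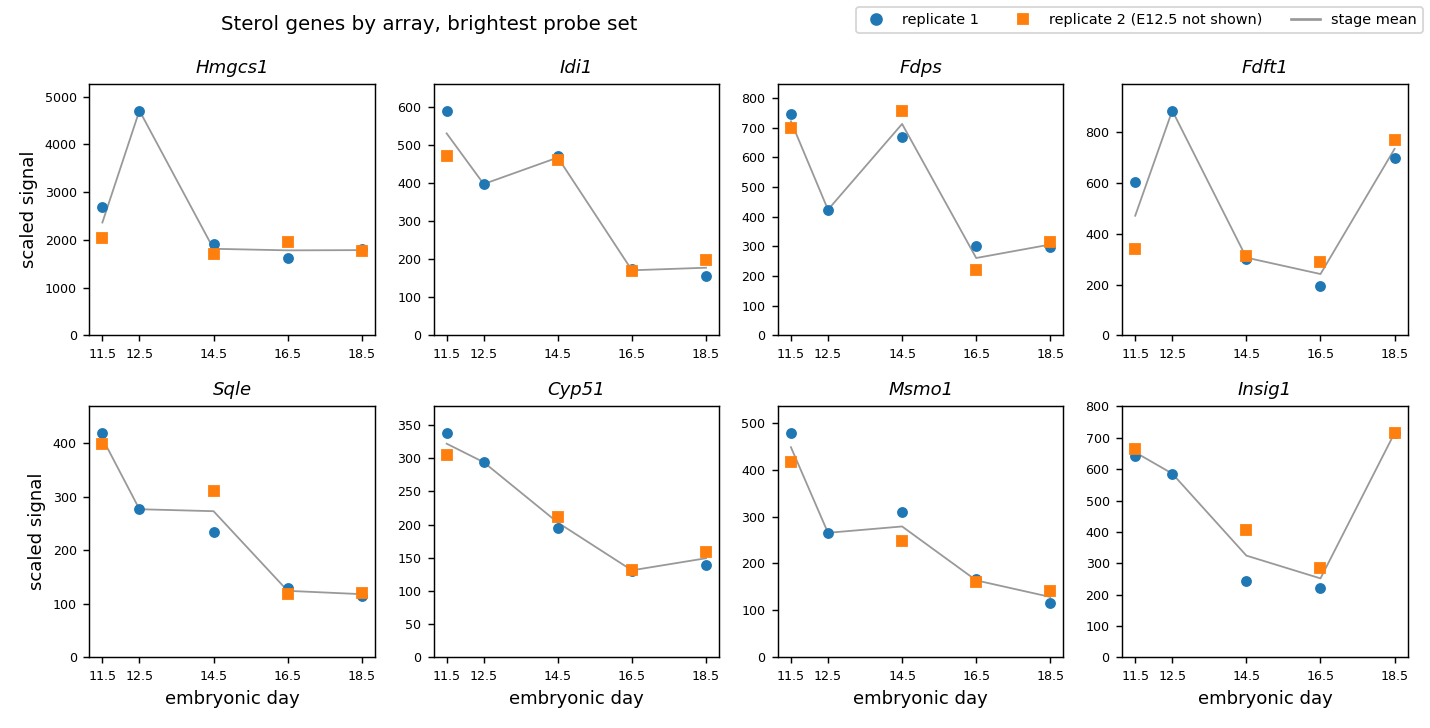
Scaled signal (vertical axis, from 0, own scale per gene) of the brightest probe set of each of the 8 genes against embryonic day, with circles for replicate 1, squares for replicate 2 and a line through stage means; E12.5 replicate 2 is not shown. Idi1, Fdps and Sqle step down between E14.5 and E16.5, and Fdft1 and Insig1 step up between E16.5 and E18.5.

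Across the whole span, 5 of the 8 genes fell between E11.5 and E18.5 and 0 rose. Of all genes 29.6% were called in this comparison and 16.4% were called lower, against 13.3% called higher. The median change of the 8 genes was -1.11, against -0.00 over all genes tested. Leaving out any 1 array gave 5 or 6 calls, and the 5 that fell were called each time.

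Idi1 converts isopentenyl diphosphate into its isomer. Its brightest probe set read 590 and 470 at E11.5, 397 on the single E12.5 array, 472 and 461 at E14.5, 173 and 169 at E16.5, and 156 and 199 at E18.5. The 5 arrays up to E14.5 all lay above the 4 later ones, with a gap from 199 to 397. Idi1 fell by 1.50 ± 0.20 from E11.5 to E18.5 (limma adjusted p = 0.000187). Its second probe set, 1423804_a_at, read 583 and 382 at E11.5 and 50.6 and 52.5 at E18.5, and fell by 2.85 ± 0.23 (limma adjusted p = 3.17e-06).

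Fdps makes farnesyl diphosphate. It read 744 and 698 at E11.5, 423 at E12.5, 667 and 757 at E14.5, 303 and 219 at E16.5, and 297 and 316 at E18.5. The E11.5 and E14.5 arrays overlapped, and both stages lay above the later ones. From E11.5 to E18.5 Fdps fell by 1.19 ± 0.20 (limma adjusted p = 0.000926).

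Sqle, the first oxygen-requiring step of the sterol branch, read 420 and 399 at E11.5, 277 at E12.5, 235 and 311 at E14.5, 130 and 119 at E16.5, and 115 and 121 at E18.5. The last 2 stages overlapped each other and lay below every earlier array. The change from E11.5 to E18.5 was -1.66 ± 0.21 (limma adjusted p = 9.79e-05).

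Cyp51, the lanosterol demethylase, read 338 and 305 at E11.5, 294 at E12.5, 194 and 212 at E14.5, 130 and 132 at E16.5, and 139 and 159 at E18.5. Its levels descended stage by stage to E16.5, and the E18.5 arrays lay just above those of E16.5. The change from E11.5 to E18.5 was -1.03 ± 0.20 (limma adjusted p = 0.0022). A dimmer Cyp51 probe set, 1422533_at, went from 228 and 191 to 34.0 and 72.3, a change of -1.76 ± 0.28 (limma adjusted p = 0.000642).

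Msmo1, the methylsterol oxidase, read 479 and 417 at E11.5, 265 at E12.5, 310 and 248 at E14.5, 168 and 160 at E16.5, and 115 and 142 at E18.5. Every E18.5 array lay below every other one. It fell by 1.68 ± 0.21 from E11.5 to E18.5 (limma adjusted p = 9.53e-05).

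The other 3 genes did not pass this comparison. Fdft1 differed by 0.68 ± 0.26 (limma adjusted p = 0.0711), Insig1 by 0.13 ± 0.23 (limma adjusted p = 0.724) and Hmgcs1 by -0.39 ± 0.21 (limma adjusted p = 0.193).

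The largest step of Idi1, Fdps and Sqle between neighbouring stages came from E14.5 to E16.5, the pair of stages that shared a run. All 3 fell, Idi1 with a change of -1.37 ± 0.20 (limma adjusted p = 0.00618), Fdps of -1.41 ± 0.20 (limma adjusted p = 0.00477) and Sqle of -1.03 ± 0.21 (limma adjusted p = 0.0224). The calls were 3 of 8 genes, all lower, where 3.7% of all genes were called and 2.53% were called lower. The median of the 8 genes was -0.64, against -0.04 over all genes.

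The second probe set of Idi1 showed a larger step than the brightest, from 340 and 402 at E14.5 to 60.5 and 51.9 at E16.5. Its change was -2.42 ± 0.23 (limma adjusted p = 0.000188). Msmo1 differed by -0.70 ± 0.21 (limma adjusted p = 0.0848), Cyp51 by -0.57 ± 0.20 (limma adjusted p = 0.134), Fdft1 by -0.35 ± 0.26, Insig1 by -0.31 ± 0.23 and Hmgcs1 by -0.03 ± 0.21, and none of these passed. A fit of the 4 arrays of this run alone kept Idi1 (limma adjusted p = 0.0161) and Fdps (limma adjusted p = 0.0214), while Sqle stood at 0.0518. Without E14.5 replicate 2, or without E16.5 replicate 2, 0 of the 8 genes passed, and the share of all genes called went to 0.265% and 0.144%. Without the intensity trend of the variance model the count was also 0. In the fits without those arrays 4 and 5 of the 8 had an unadjusted p under 0.05.

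**Figure D2:**
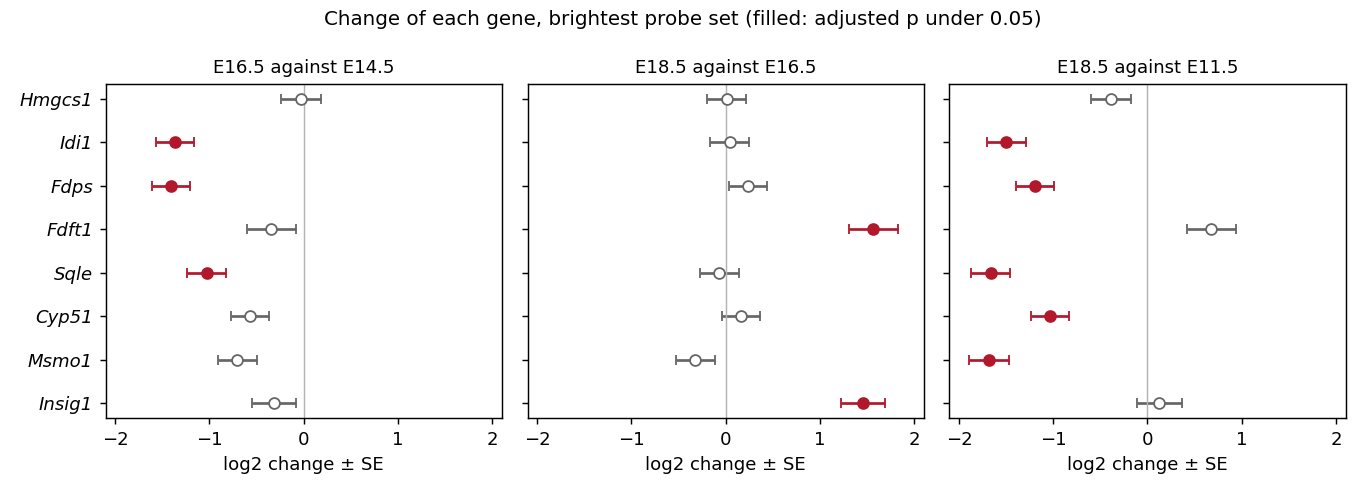
Log2 change of each gene by its brightest probe set with bars of ± 1 SE (limma, 9 arrays), in 3 panels for E16.5 against E14.5, E18.5 against E16.5 and E18.5 against E11.5; filled points have an adjusted p under 0.05. Idi1, Fdps and Sqle are filled and negative in the first panel, Fdft1 and Insig1 are filled and positive in the second, and 5 genes are filled and negative in the third.

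Between E16.5 and E18.5, 2 of the 8 genes rose and 0 fell, where 1.11% of all genes were called and 0.842% were called higher. They were Fdft1 and Insig1, neither of which was called over the whole span.

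Insig1, the sterol-sensitive retention protein, read 643 and 664 at E11.5, 586 at E12.5, 243 and 406 at E14.5, 220 and 284 at E16.5, and 716 and 714 at E18.5. The E14.5 and E16.5 arrays overlapped, and all 4 lay below the 5 arrays of the other stages. Insig1 fell by 1.02 ± 0.23 from E11.5 to E14.5 (limma adjusted p = 0.0255). It was the only one of the 8 genes called in that comparison, where 5.6% of all genes were called and 2.12% were called lower. The call was lost without either E11.5 array, without E14.5 replicate 1 and without either E18.5 array. From E16.5 to E18.5 Insig1 rose by 1.46 ± 0.23 (limma adjusted p = 0.00979).

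Fdft1, the enzyme that commits carbon to sterols, read 604 and 339 at E11.5, 885 at E12.5, 301 and 312 at E14.5, 195 and 288 at E16.5, and 698 and 771 at E18.5. The E18.5 arrays lay above all others except the E12.5 array. From E16.5 to E18.5 Fdft1 rose by 1.56 ± 0.26 (limma adjusted p = 0.0125).

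A second bright Fdft1 probe set, 1448130_at, read 432 and 395 at E11.5, 326 at E12.5, 333 and 307 at E14.5, 140 and 135 at E16.5, and 417 and 528 at E18.5. It passed both late steps, with a fall of 1.13 ± 0.20 from E14.5 to E16.5 (limma adjusted p = 0.0122) and a rise of 1.66 ± 0.20 from E16.5 to E18.5 (limma adjusted p = 0.00148). The brightest probe set differed by -0.35 ± 0.26 in the first of these steps and did not pass (limma adjusted p = 0.499). The other 2 tested probe sets of Fdft1, 1438918_at and 1438919_x_at, were dim, between 5.05 and 97.6 on the 9 arrays, and did not pass the F test (limma adjusted p = 0.934 and 0.156).

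The late rise of Fdft1 and Insig1 rested on few arrays. Without E16.5 replicate 1, or without either E18.5 array, 0 of the 8 genes passed, although both kept an unadjusted p under 0.05 in each of these fits. Without the intensity trend the count was 0 as well, and with the mean of each gene's probe sets Insig1 alone passed. E18.5 was also the only stage in its run. Among the other 6 genes the E18.5 against E16.5 differences ran from -0.32 for Msmo1 to 0.24 for Fdps, and none passed.

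Hmgcs1 had 4 tested probe sets, which differed in direction at E12.5. The brightest, 1433443_a_at, read 2681 and 2049 at E11.5, 4709 on the single E12.5 array, 1913 and 1716 at E14.5, 1611 and 1952 at E16.5, and 1807 and 1766 at E18.5. By that probe set Hmgcs1 rose by 1.00 ± 0.26 from E11.5 to E12.5 (limma adjusted p = 0.0281) and fell by 1.37 ± 0.26 from E12.5 to E14.5 (limma adjusted p = 0.00489). Probe set 1433446_at moved the opposite way. It read 792 and 926 at E11.5, 290 at E12.5, and 610 and 600 at E14.5, changes of -1.51 ± 0.23 (limma adjusted p = 0.00125) and 1.02 ± 0.23 (limma adjusted p = 0.0118). The mean of the 4 probe sets gave -0.27 for E12.5 against E11.5, and did not pass.

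The remaining 2 Hmgcs1 probe sets descended. Probe set 1433444_at went from 1661 and 1753 at E11.5 through 1039 and 1019 at E14.5 to 648 and 707 at E18.5, a change of -1.31 ± 0.19 (limma adjusted p = 0.000268). Probe set 1433445_x_at went from 2290 and 1939 at E11.5 to 898 and 1196 at E18.5, a change of -1.01 ± 0.21 (limma adjusted p = 0.00305). Over the whole span the E18.5 arrays lay below the E11.5 arrays on all 4 probe sets, with changes from -0.36 to -1.31, of which 2 passed. The direction thus differed between probe sets in the comparisons with E12.5, and the array with the 3′-shifted control is the one on which 1433443_a_at was high and 1433446_at low. The part of that shift in the E12.5 values was not tested.

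**Figure D3:**
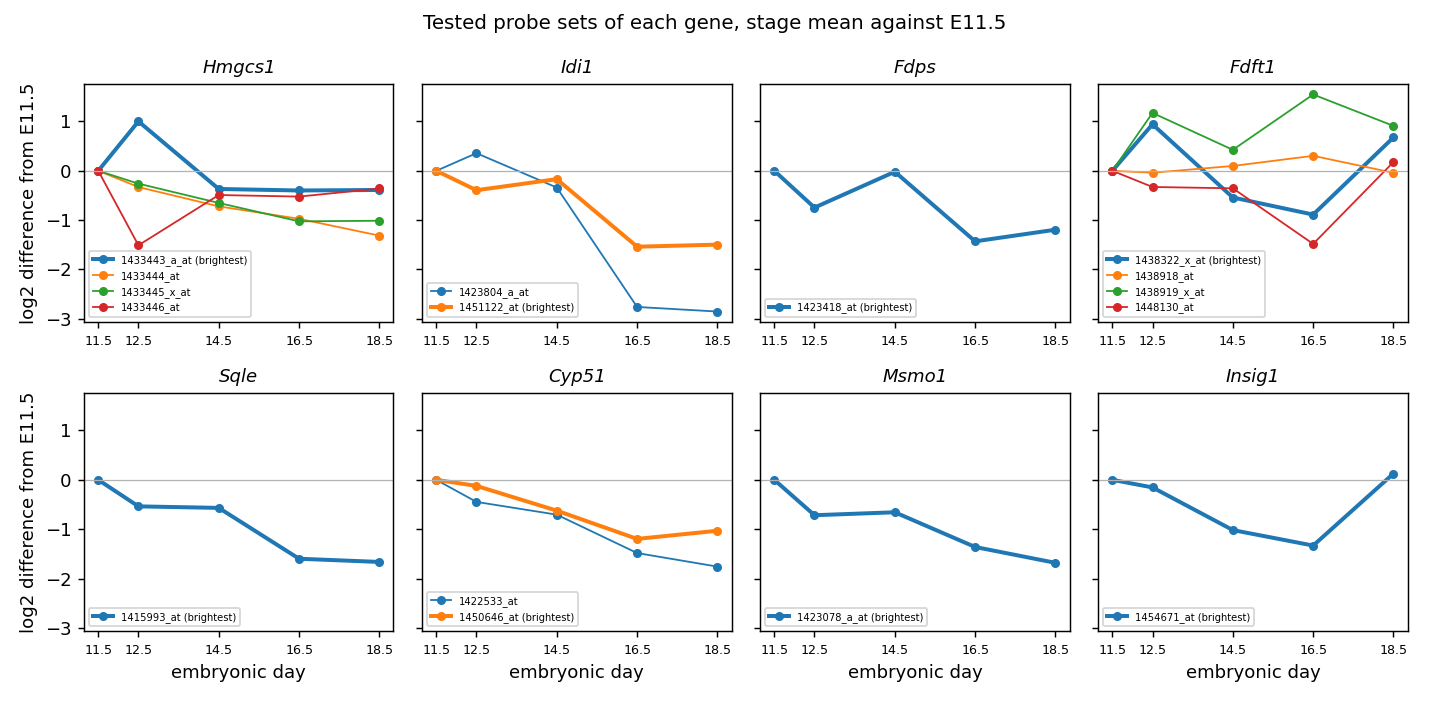
Stage mean of the log2 signal of each tested probe set minus its E11.5 mean (vertical axis, log2) against embryonic day, 1 panel per gene, with the brightest probe set drawn thick. The 4 Hmgcs1 lines diverge at E12.5, the pairs of Idi1 and Cyp51 run downward from E14.5 to E16.5, and 2 of the 4 Fdft1 lines dip at E16.5.

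At E12.5 few calls were made among the 8 genes. Against E11.5 the call was 1 of 8, Hmgcs1, where 6.93% of all genes were called and 4.76% called higher. It was lost without E11.5 replicate 2 and without either E18.5 array, and Fdft1 joined it without E11.5 replicate 1. E14.5 against E12.5 gave 2 of 8, both lower, where 10.4% of all genes were called and 6.83% called lower. These were Hmgcs1 and Fdft1, the latter at -1.48 ± 0.32 (limma adjusted p = 0.0102). With quantile normalization Hmgcs1 was not called and Fdps was called higher. Fdft1 was not called without E14.5 replicate 1, and its probe set 1448130_at differed by -0.03 in this comparison.

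Over the 9 arrays, Idi1, Fdps, Sqle, Cyp51 and Msmo1 correlated with each other at Pearson r from 0.78 to 0.96 in 10 pairs. Fdft1 and Insig1 correlated at 0.82 with each other and at -0.07 to 0.47 with those 5. Hmgcs1 correlated at 0.16 to 0.65 with the other genes. The points share the 5 stages and 3 runs, so these values are descriptions. Outside all lists, the genes whose signal ran most like the mean of the 8 over the 9 arrays were Ube2c (r = 0.984), Zfp946 (0.983), Dnph1 (0.979), Cse1l (0.975) and Ints11 (0.974). Ube2c, a ubiquitin-conjugating enzyme of mitotic exit, had a mean signal of 976 at E11.5, 636 at E14.5, 387 at E16.5 and 474 at E18.5.

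Of the other enzymes of cholesterol synthesis, 11 of the 14 listed were analysed here, and 4 passed the F test, where 35.5% of all genes did. From E11.5 to E18.5, 3 of the 11 fell and 0 rose, with a list median of -0.30, against -0.00 over all genes. Over all genes 16.4% were called lower and 13.3% higher in that comparison, 29.6% in all, and 3 of 11 is close to that total. Lbr, the lamin B receptor, which is also a sterol reductase, went from 892 ± 65.3 (SD, n = 2) to 367 ± 31.8, and fell by 1.25 ± 0.21 (limma adjusted p = 0.000933). It was also the 1 gene of this list to fall from E14.5 to E16.5, by 0.95 ± 0.21 (limma adjusted p = 0.0328), where 2.53% of all genes were called lower. Tm7sf2, the other sterol reductase of that step, fell by 1.55 ± 0.40 (limma adjusted p = 0.0125). It read 124 and 88.9 at E11.5 and 9.10 and 52.8 at E18.5, so the size of its fall leans on 1 dim array. The sterol isomerase Ebp fell by 0.65 ± 0.21 (limma adjusted p = 0.0363). Mvd, the last enzyme of the mevalonate stretch, differed by -0.81 ± 0.30 (limma adjusted p = 0.0629).

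In the isoprenoid branch, 6 of 7 genes were analysed and 2 fell over the span, against 0 that rose (list median -0.30). That count, and the 3 of 9 for uptake and transport, are near the 29.6% of all genes called. Fnta, a subunit of protein farnesyltransferase, fell by 0.70 ± 0.23 (limma adjusted p = 0.0412). For uptake and transport, 9 of 13 genes were tested, 3 fell and 0 rose (list median 0.02). The falls were those of Mylip (-0.63 ± 0.22, limma adjusted p = 0.0459), Stard3 (-0.76 ± 0.22, limma adjusted p = 0.0201) and Stard4. The receptors Lrp1 and Scarb1 differed by 0.02 ± 0.27 and 0.10 ± 0.24 and did not pass. Stard4, a cytosolic sterol carrier, went from 259 ± 56.0 (SD, n = 2) to 145 ± 23.7 and fell by 0.77 ± 0.22 (limma adjusted p = 0.0198). Lipa, the lysosomal lipase that frees cholesterol from lipoprotein esters, differed by 0.74 ± 0.27 (limma adjusted p = 0.0628). Vldlr, a lipoprotein receptor, differed by -0.33 ± 0.30 (limma adjusted p = 0.443), although both passed the F test.

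Among 9 tested of 11 genes of sterol sensing, 2 rose and 1 fell (list median -0.07), again near the 29.6% of all genes called. Scap, the escort of SREBP, rose by 1.00 ± 0.24 (limma adjusted p = 0.00833). Insig2, the paralog of Insig1, had stage means of 172 ± 51.9 (SD, n = 2) at E11.5, 231 ± 47.1 at E14.5, 296 ± 8.7 at E16.5 and 317 ± 8.8 at E18.5, and rose by 0.86 ± 0.23 (limma adjusted p = 0.0157). Unlike Insig1 it showed no dip at E14.5 or E16.5, though the difference between the 2 courses was not tested. Srebf2, the SREBP factor of the sterol genes, differed by -0.57 ± 0.27 and did not pass (limma adjusted p = 0.136).

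Of 9 genes of efflux, storage and oxidation, 5 were tested, 3 rose and 0 fell from E11.5 to E18.5, with a list median of 0.81. Of all genes 29.6% were called in this comparison and 13.3% were called higher. Apoe, the lipoprotein ligand, had stage means of 204 ± 15.0 (SD, n = 2) at E11.5, 290 ± 83.9 at E14.5, 611 ± 71.5 at E16.5 and 764 ± 44.6 at E18.5. It rose by 1.83 ± 0.22 over the span (limma adjusted p = 7.31e-05) and by 1.06 ± 0.22 from E14.5 to E16.5 (limma adjusted p = 0.0251). The efflux pump Abca1 rose by 0.81 ± 0.18 (limma adjusted p = 0.00503), and Cyp46a1, a cholesterol hydroxylase, by 0.91 ± 0.27 (limma adjusted p = 0.0239).

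Fatty acid synthesis, which SREBP factors also drive, went both ways. All 11 listed genes were tested, and over the span 5 fell and 2 rose (list median 0.12), where 16.4% of all genes were called lower and 13.3% higher. The elongase Elovl6 fell by 1.51 ± 0.21 (limma adjusted p = 0.000205) and the citrate lyase Acly by 1.15 ± 0.22 (limma adjusted p = 0.0018). Malic enzyme, Me1, rose by 1.24 ± 0.22 (limma adjusted p = 0.00144). Acss2, an acetyl-CoA synthetase, rose by 1.17 ± 0.28 (limma adjusted p = 0.00865), with stage means of 49.7 at E11.5, 297 at E14.5, 343 at E16.5 and 126 at E18.5.

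For steroid hormone synthesis, 6 of 8 genes were tested, 2 rose and 1 fell (list median 0.54), where 13.3% of all genes were called higher and 29.6% in either direction. Hsd3b1, a steroid dehydrogenase, rose by 0.93 ± 0.32 (limma adjusted p = 0.0493) and the ferredoxin Fdx1, an electron donor to steroidogenic enzymes, by 0.81 ± 0.19 (limma adjusted p = 0.00802). Nr5a1 was the 1 that fell, with a change of -0.97 ± 0.25 (limma adjusted p = 0.0127). Star, Cyp11a1 and Hsd17b1 differed by 0.08 ± 0.25, 0.31 ± 0.35 and 0.77 ± 0.34 and did not pass.

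**Figure D4:**
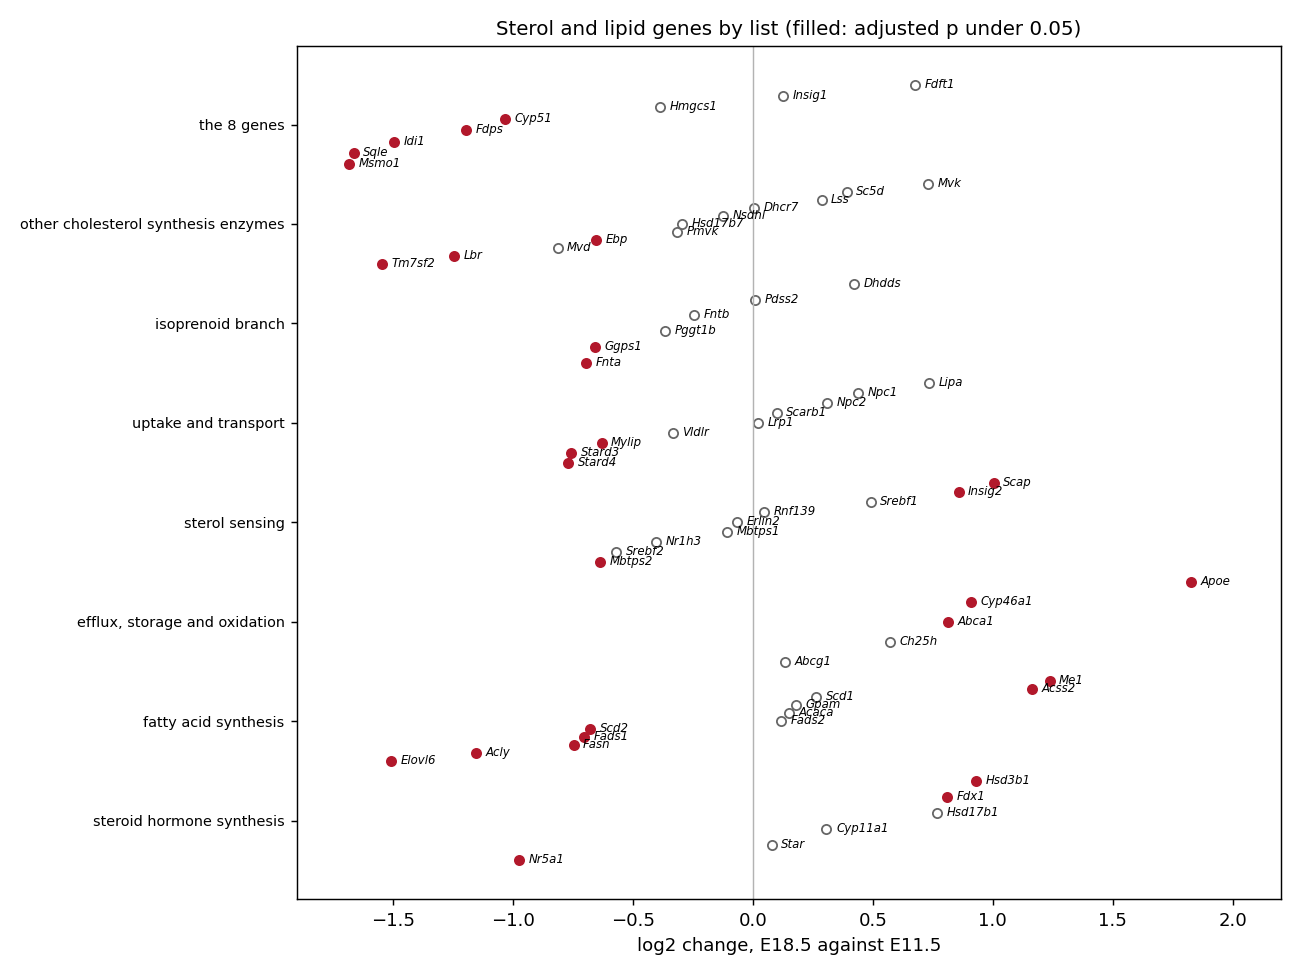
Log2 change from E11.5 to E18.5 (horizontal axis) of each tested gene in the 8 sterol and lipid lists (rows, spread vertically for legibility), by its brightest probe set on 9 arrays; filled points have a limma adjusted p under 0.05. Filled points lie to the left for the 8 genes and the other cholesterol enzymes, to the right for efflux, storage and oxidation, and on both sides for fatty acid synthesis.

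Summed signals of marker lists also differed between stages. Germ cell markers (8 of 8 tested) summed to 779 to 812 at E11.5 and 9328 to 9874 at E18.5. Of these 7 rose over the span, where 13.3% of all genes were called higher. Pou5f1 instead fell by 2.56 ± 0.485 (limma adjusted p = 0.00199). Pregranulosa markers (8 of 8) summed to 3068 to 3717 and 5376 to 5430 at the same stages. Of these 5 rose, while Wnt4, Rspo1 and Kitl differed by -0.03, -0.03 and 0.01 and did not pass. Proliferation markers (7 of 8 tested) summed to 11129 to 15400 at E11.5, 8117 to 9162 at E14.5, 3697 to 4647 at E16.5 and 2986 to 3099 at E18.5. On the single E12.5 array the proliferation sum was 18602. It descended from E14.5 to E16.5, the interval in which Idi1, Fdps and Sqle fell. It also descended from E11.5 to E14.5, where these genes differed by -0.17, -0.02 and -0.57, and from E16.5 to E18.5, where they differed by 0.04, 0.24 and -0.07. None of these differences passed. Erythroid markers (5 of 6 tested) went from 12066 to 13949 at E14.5 to 1085 to 1472 at E16.5. The embryonic globins Hba-x, Hbb-bh1 and Hbb-y carried this sum and fell. Alas2, of haem synthesis, differed by 0.60 ± 0.20 (limma adjusted p = 0.13) and Slc4a1, the red cell anion exchanger, by -0.29 ± 0.29 (limma adjusted p = 0.632). Exocrine pancreas markers (3 of 6) went from 1046 to 1498 at E11.5 to 62.7 to 66.1 at E18.5. Cpa1 and Pnliprp2 fell, whereas Cel differed by 0.20 ± 0.37 (limma adjusted p = 0.729). The part of all these markers in the falls was not tested.

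The summed hepatocyte markers, from a tissue rich in sterol synthesis, were highest at E18.5. Their sum (7 of 9 tested) was 171 to 172 at E11.5, 1323 to 3445 at E14.5, 628 to 981 at E16.5 and 3791 to 4049 at E18.5. Alb, the serum albumin gene, read 209 and 497 at E16.5 and 1994 and 2259 at E18.5, and rose by 2.65 ± 0.38 (limma adjusted p = 0.00449). Of the 7 markers 5 rose from E16.5 to E18.5 and 0 fell, where 1.11% of all genes were called and 0.842% were called higher. Afp, the fetal albumin relative, was instead highest at E14.5, with 866 and 2295, against 585 and 615 at E18.5, and it made up most of the E14.5 sums. Insig1 and Fdft1 rose across the same interval from E16.5 to E18.5. At E11.5 Insig1 read 643 and 664 with hepatocyte sums of 171 and 172. Within E14.5 Insig1 read 243 on the array with a sum of 1323 and 406 on the array with 3445. Within E16.5 it read 220 with 628 and 284 with 981. On the same arrays in the same order, the brightest Fdft1 probe set read 301 and 312, then 195 and 288. The Fdft1 probe set 1448130_at went the other way, with 333 and 307, then 140 and 135. The part of these markers in the Insig1 and Fdft1 rises was not tested. Adrenal cortex markers (4 of 6 tested) summed to 417 to 464 at E11.5 and 120 to 143 at E14.5. At E16.5 the sums were 244 to 333 and at E18.5 287 to 297, overlapping ranges. From E11.5 to E14.5, where Insig1 also fell, 2 of the 4 fell, where 2.12% of all genes were called lower. These were Mc2r, by 2.65 ± 0.44 (limma adjusted p = 0.00315), and Nr0b1, by 1.30 ± 0.23 (limma adjusted p = 0.00456). The other 2, Cyp21a1 and Cyp11b1, differed by -1.07 ± 0.58 (limma adjusted p = 0.331) and -0.21 ± 0.49 (limma adjusted p = 0.852) and did not pass. At E11.5 Nr0b1 read 192 and 256 and Mc2r 132 and 152, so Nr0b1 and Mc2r carried most of the sum. The part of adrenal markers in the course of Insig1 was not tested.

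**Figure D5:**
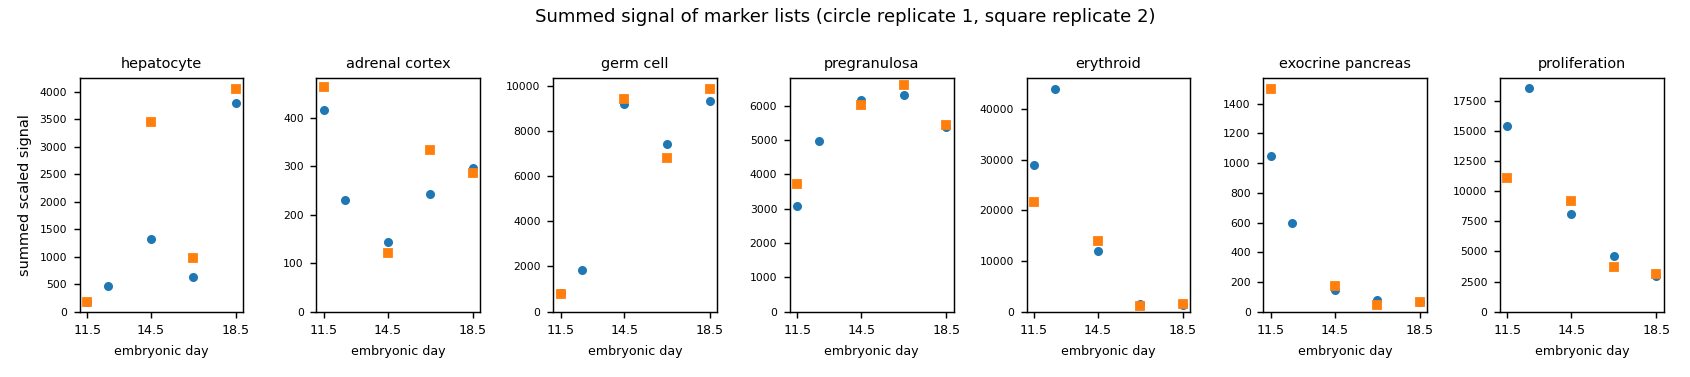
Summed scaled signal (vertical axis, from 0, own scale per panel) of the tested genes of 7 marker lists against embryonic day, 1 point per array, circles for replicate 1 and squares for replicate 2, on 9 arrays. Proliferation, erythroid and pancreas sums end low, germ cell sums end high, and the hepatocyte sum is highest at E18.5 with its E14.5 arrays far apart.

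The 4 untested probe sets were dim on the 9 arrays. They read 0.788 to 50.6, and included 1 probe set each of Hmgcs1, Fdps, Cyp51 and Msmo1.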

How the data were processed

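RNA of 10 embryonic mouse ovary preparations was measured on Affymetrix Mouse430_2 arrays. Per the labels, Trizol was used for extraction and biotin for labelling, in a single cycle. The deposited value table held linear intensity values, 1 signal per probe set, which the authors had scaled to a 2% trimmed mean of 125 on every array. The software behind them is not given in the sources used here. Other content, namely wash and scan settings, came from the deposited experiment files, which gave the array type and the hybridization dates. No depth applies to arrays, and their number limits the precision.

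Of 45101 probe sets, 64 controls were left out. The platform annotation, which can be old, gave 34945 probe sets 1 symbol, 932 several and 9160 none. By gene identifier 34741 matched the RefSeq gene table, which updated 0 symbols. Deposited medians ran from 36.7 to 52.4 on 9 arrays. Signals were scaled to a common 75th percentile of 142.3, 16 was added and log2 taken. Testing required a signal no lower than the overall median of values on 2 or more arrays. The 9 arrays were fitted with limma 3.58.1 in R 4.3.3 (1 mean per stage, eBayes with intensity trend, two-sided), E12.5 being a single array assumed to vary like the other stages. The other steps used Python 3.11.15 with pandas 2.3.3, numpy 2.4.6 and matplotlib 3.10.9. The script was tested on simulated data.

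Every one of the 8 genes is named with its probe sets. Of each other list, genes past the F test are named, at most 4, by the largest gap between stage means, with Srebf2 and Insig2 whatever their values. Mylip, Stard3, Lrp1, Scarb1, Nr5a1, Star, Cyp11a1 and Hsd17b1 were added after their values were seen. Genes most like the 8 are the 5 with the highest r. All single genes of the marker lists were named after their values were seen. The genes and lists were chosen with earlier results of these data known. Alternatives were tried for the 8 genes. They were the arrays used, scaling, value added, filter, probe set per gene, variance trend, hybridization run, replicate block and each array left out. Some listed genes were not analysed here.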

Additional observations from a re-analysis of the deposited data

How the results depend on the processing

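With all 10 arrays 0 of the 8 genes were called in every comparison and in the F test. The E12.5 against E11.5 count, 1, became 2 on signals as deposited. It became 0 with quantile normalization, no filter, the mean of probe sets, no intensity trend or the arrays of the first run alone. E14.5 against E12.5, 2, became 0 with the mean of probe sets and 1 without the trend. It was 3 on signals as deposited, with Fdps called higher, and 2 with quantile normalization, with Fdps called higher and Hmgcs1 lost. E14.5 against E11.5, 1, became 0 with quantile normalization, no filter or no trend and 2 with the mean of probe sets. E16.5 against E14.5, 3, became 0 without the trend, where 5 had an unadjusted p under 0.05. E18.5 against E16.5, 2, became 1 with the mean of probe sets and 0 without the trend. The E18.5 against E11.5 count was 5 or 6 under every alternative other than 10 arrays. Leaving out 1 array gave ranges of 7 to 8 across the stages, 0 to 2 for E12.5 against E11.5, 1 to 3 for E14.5 against E12.5, 0 to 1 for E14.5 against E11.5, 0 to 3 for E16.5 against E14.5, 0 to 2 for E18.5 against E16.5 and 5 to 6 for E18.5 against E11.5. The Hmgcs1 difference between E12.5 and E11.5 reversed to -0.20 with 10 arrays and -0.27 with the mean of probe sets. Of 864 single-gene alternatives 770 kept direction and side of the threshold, 53 lost the call, 11 gained it, 28 turned sign without a call and 2 reversed. The labels do not say whether replicate numbers pair the samples. The 6 correlations of same-numbered deviations ran from -0.07 to 0.04, which shows no shared deviation but does not settle pairing. With the replicate block the E12.5 against E11.5 count was 0 and the E14.5 against E12.5 count 3, and the other 5 counts were as before. The causes were not tested. With 2 arrays a stage, small differences cannot be resolved.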
